A study of Rattus norvegicus with 59 samples.

Results

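The livers of rats given cadmium (Cd) were compared between the first and the third day after the injection, each day against its own controls, in 19 of the 59 liver arrays of the series. The animals were male Sprague-Dawley rats that received a single intraperitoneal injection of CdCl2 at 1.25 mg/kg, the medium dose of the study, or of saline vehicle. The 19 arrays were chosen by their labels: 5 controls and 4 exposed livers on day 1, and 5 controls and 5 exposed livers on day 3. Here the Cd effect of a day is the mean log2 signal of the exposed livers minus that of the same-day controls, and the net change is the day 3 effect minus the day 1 effect. A positive net change can therefore mean that a gene lowered on day 1 returned, and a negative one that a gene raised on day 1 returned. The livers of day 1 and day 3 came from different rats. For comparison, 20 arrays came from rats of the same kind given 1 injection of Na2Cr2O7, a chromium (Cr) salt, or vehicle, with 5 exposed livers and 5 controls on each of day 1 and day 3. The labels give the Cr dose as 20 mg/kg, the high dose of the study. The methods of the study name a lower dose for the arrays but also state that the high dose was chosen for them. RNA came from whole liver, a mixture of cell types, and the values are robust multi-array averages (RMA, the authors' log2 signals) from an Affymetrix whole genome array for the rat, on which a probe set stands for a transcript.

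Replicate 3 of the day 1 exposed group was left out by the authors, who stated that its liver had not accumulated Cd and that its array lay with the controls. The exposed livers of day 1 are therefore numbered 1, 2, 4 and 5, and values are always given in the order of the numbers. Exposed liver 5 of day 3 also stood apart. The signal of Mt2A, a metallothionein that binds Cd, was 7.72 there against 7.60 to 9.98 in the same-day controls, while the other 4 exposed livers of that day lay between 9.87 and 11.27. Exposed liver 5 of day 1 had raised Mt2A (11.69) but kept more of the macrophage signal than livers 1, 2 and 4. Results that rest on either liver are given with and without it. Median signals of the arrays ranged from 5.38 to 5.46, and correlations between arrays of a group from 0.988 to 0.995. The log2 of the summed signals of 9 hepatocyte markers, albumin among them, lay between 17.37 and 17.46 in all 19 livers, a sum that the brightest markers dominate. Of these 9 markers 1 was called higher and 2 lower on day 1 and none on day 3, and in the net change 1 was higher and 1 lower.

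Cd given to a rat by injection is taken up largely by the liver, where it is bound by metallothionein, a small protein rich in cysteine that is made on demand when zinc or Cd activates the transcription factor MTF1. Unbound Cd attacks thiol groups, disturbs protein folding in the endoplasmic reticulum (ER) and injures hepatocytes and sinusoidal endothelium. Kupffer cells, the resident macrophages of the sinusoids, respond to injured hepatocytes, and the cytokines released drive the acute phase response, in which hepatocytes make defence proteins at the expense of their metabolic work. Recovery in the liver involves the return of these programmes and the division of surviving cells.

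The transcriptional response to Cd was largest on day 1 and mostly gone by day 3. Of 15521 probe sets tested, 3723 (24.0%) differed between exposed and control livers on day 1 at an adjusted p of 0.05 or less (limma, Benjamini-Hochberg over all probe sets tested), 2067 higher (13.3%) and 1656 lower (10.7%). On day 3 the number was 221 (1.42%), with 196 higher (1.26%) and 25 lower (0.161%). The Cd effect itself changed between the days at 1801 probe sets (11.6%), upward at 930 (5.99%) and downward at 871 (5.61%), and 556 of them (3.58%) did so by at least 1.8-fold. The median net change over all probe sets was -0.007. At 3325 probe sets (21.4%) the values of the exposed livers, each minus the mean of its same-day controls, did not overlap between the 4 livers of day 1 and the 5 livers of day 3.

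The day 3 count depended strongly on single livers. It was 409 without exposed liver 5, and it fell to between 23 and 94 when exposed liver 1, 3 or 4 or control liver 3, 4 or 5 of day 3 was left out. Calls on day 3 are accordingly described below by their values in each liver. The day 1 count stayed between 2820 and 3729 when each of the 9 livers of day 1 was left out, and the count for the net change between 1328 (without exposed liver 4 of day 1) and 1968. The methods of the study contrasted each exposure with pooled controls. With the controls of all 3 days pooled into 1 group, the net change is that from exposed livers of day 1 to exposed livers of day 3, and it was called at 3078 probe sets (19.8%), 1546 upward (9.96%) and 1532 downward (9.87%).

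Probe sets called on day 1 had mostly lost their difference by day 3. The day 1 and day 3 comparisons share no arrays. The 2067 probe sets that were higher on day 1 had a median Cd effect of 0.43 (log2) on that day and of 0.04 on day 3, and 47 of them (2.27%) were also called higher on day 3. For the 1656 that were lower on day 1 the medians were -0.46 and -0.02, and 4 (0.242%) were also called lower on day 3, while 26 were called higher. Over all probe sets 0.161% were called lower and 1.26% higher on day 3, so that these counts of 4 and 26 lay near the shares of all. Among the 325 (2.09% of all) that had been higher by at least 1.8-fold, the median effect went from 1.19 to 0.31, and 26 (8.0%) were still called higher. Without exposed liver 5 of day 3 these counts were 117 (5.66%) of 2067, 11 of 1656 and 56 (17.2%) of 325. Seen from day 3, 24.0% of the 196 rises and 16.0% of the 25 falls had been called in the same direction on day 1. Of all probe sets, 13.3% had been called higher and 10.7% lower on day 1.

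**Figure D1:**
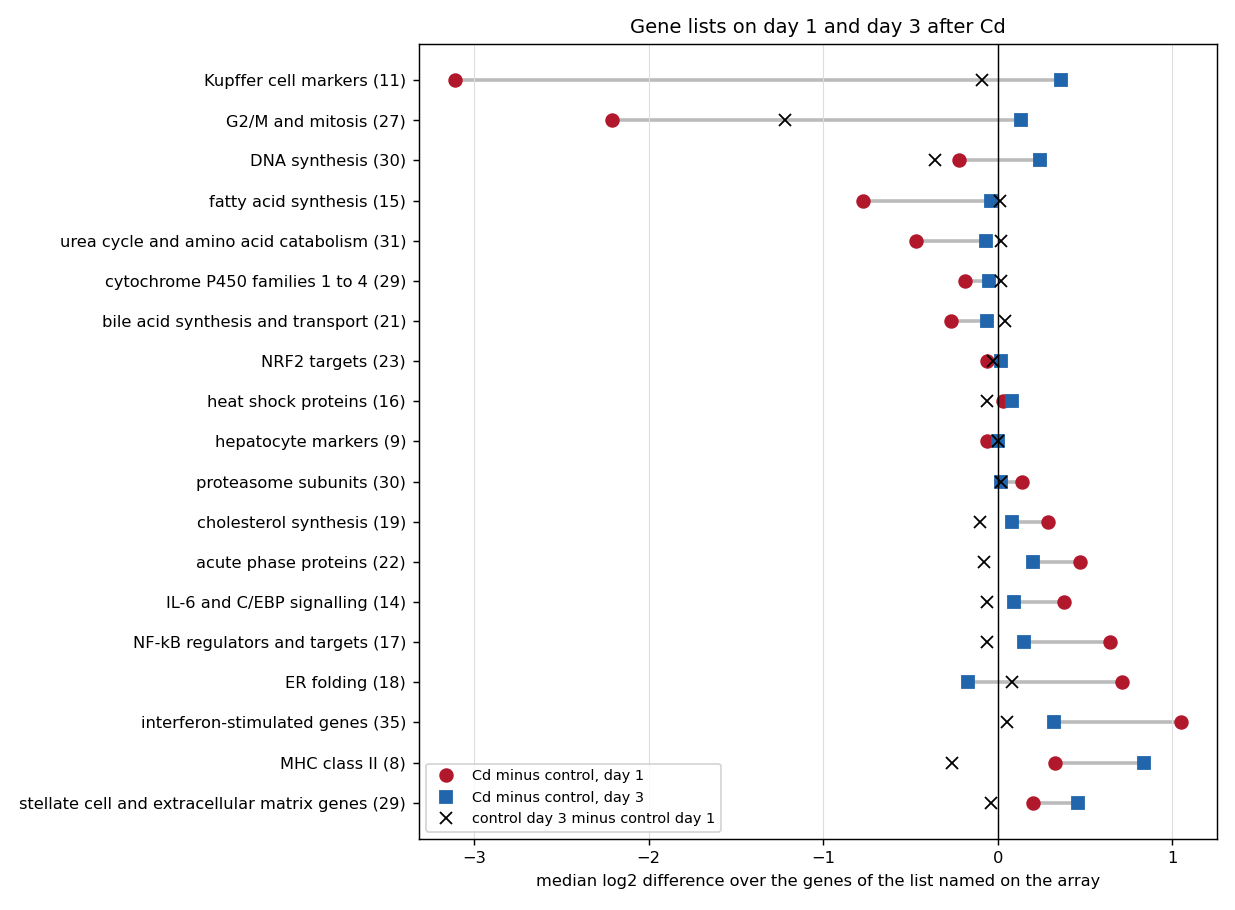
Median log2 difference over the genes of 19 gene lists (number of genes in parentheses) for Cd minus control on day 1 (circles) and day 3 (squares), with the change of the controls themselves from day 1 to day 3 (crosses). Kupffer cell markers and mitosis genes lay far below 0 on day 1 and near or above 0 on day 3, interferon-stimulated and ER folding genes the reverse, and the control cross of the mitosis genes lay at -1.22.

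Genes of Kupffer cells were among those with the largest upward changes. Of the 11 marker genes named on the array, 9 had a net change upward and 0 downward, with a median of 2.56 on the log2 scale. On day 1 the same list had 9 members lowered and 1 raised (median -3.11), and on day 3 none was called (median 0.36). The control livers of day 3 differed from those of day 1 by a median of -0.09 over the list. The log2 signals of C1qa were 9.82, 10.01, 10.04, 9.54 and 10.07 in the control livers of day 1, 5.03, 5.57, 5.37 and 8.61 in the exposed livers of day 1, 9.77, 10.12, 9.73, 9.90 and 9.86 in the controls of day 3 and 10.24, 9.95, 10.23, 10.34 and 10.17 in the exposed livers of day 3. C1qa encodes a chain of C1q, the molecule that starts the classical complement pathway. Its signal was near the median signal of the arrays in exposed livers 1, 2 and 4 of day 1, intermediate in liver 5, and at the level of the controls in all 5 exposed livers of day 3. Its net change was 4.06 ± 0.55 (SE, adjusted p = 1.8e-05), made of a day 1 effect of -3.75 (13.4-fold lower) and a day 3 effect of 0.31. Without both exposed livers numbered 5 the net change was 4.88.

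The other chains of C1q moved alike, with net changes of 3.19 ± 0.44 for C1qb and 3.61 ± 0.47 for C1qc. Adgre1, which encodes an adhesion receptor that marks macrophages, went from 3.40 to 5.87 in the exposed livers of day 1 to 6.55 to 7.58 on day 3, against 7.03 to 7.41 and 6.76 to 7.28 in the controls (net change 3.26 ± 0.46, adjusted p = 2.65e-05). Csf1r, the receptor for the growth factor that macrophages need to survive, had a smaller day 1 effect (-1.20, adjusted p = 2.89e-06) and a net change of 1.67 ± 0.22. For Csf1r the signals were 8.0, 8.15, 8.07, 8.03 and 8.21 (controls of day 1), 6.77, 7.29, 6.29 and 7.22 (exposed, day 1), 7.84, 8.0, 7.93, 7.90 and 7.98 (controls of day 3) and 8.26, 8.26, 8.79, 8.54 and 8.15 (exposed, day 3). All 4 exposed livers of day 1 lay below all controls, and all 5 of day 3 lay above all same-day controls, although the day 3 effect (0.47) did not pass the test (adjusted p = 0.13). Cd68, a lysosomal glycoprotein of macrophages, had a net change of 2.00 ± 0.29 (adjusted p = 4.63e-05). Clec4f, Cd163, Csf1r, Cd68, Mrc1 and Lyz2 fell outside the rule for named genes and complete the list of 11.

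**Figure D2:**
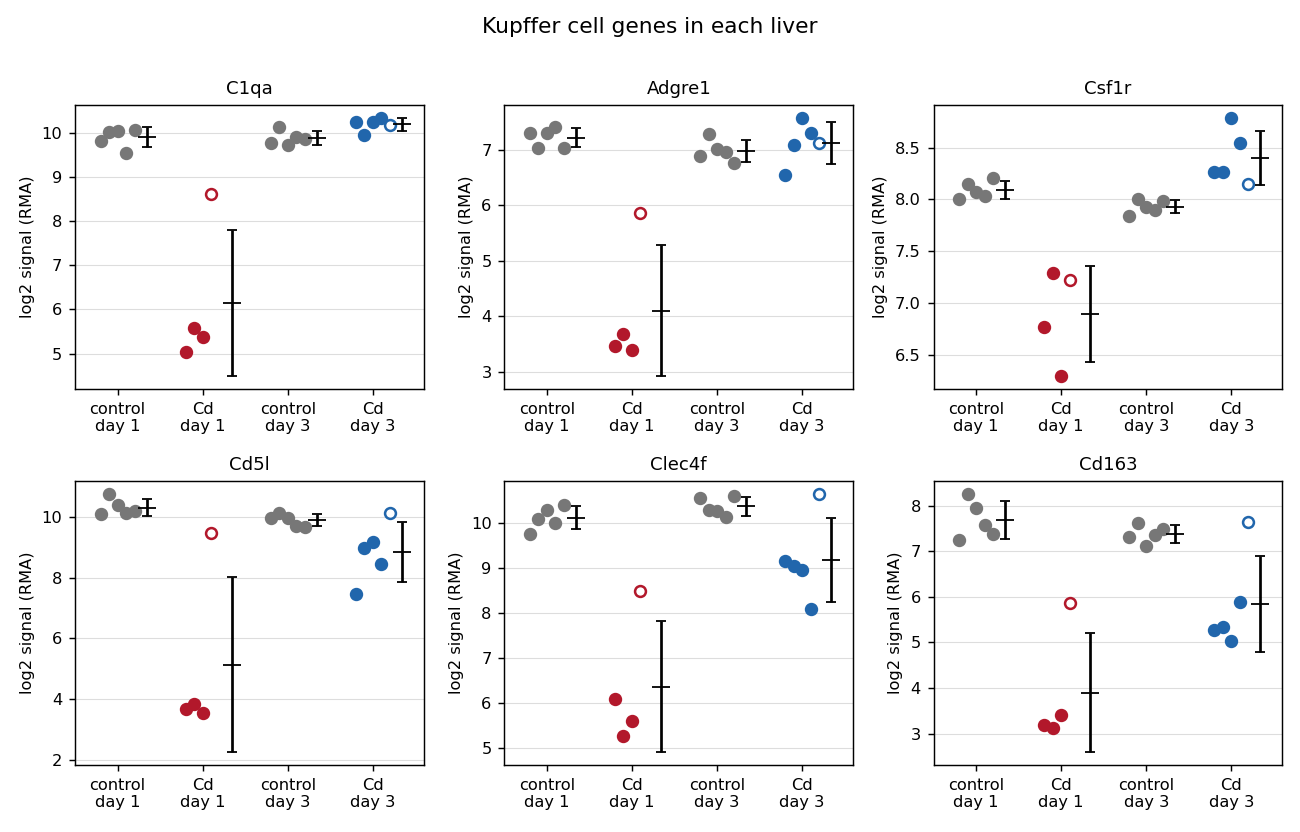
Log2 signal in each liver (grey controls, red Cd day 1, blue Cd day 3, open symbols for the exposed livers numbered 5; bars are the mean and SD) of 6 Kupffer cell genes. C1qa, Adgre1 and Csf1r were at or above the control level on day 3, while Cd5l, Clec4f and Cd163 lay below their controls in livers 1 to 4 of day 3.

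For 3 members of the list exposed livers 1 to 4 of day 3 lay below the controls. Clec4f lay between 9.75 and 10.40 in the controls of day 1 and gave 6.08, 5.26, 5.61 and 8.48 in day 1 exposed livers, 10.55, 10.28, 10.25, 10.12 and 10.60 in day 3 controls and 9.16, 9.03, 8.96, 8.08 and 10.64 in day 3 exposed livers. Clec4f encodes a lectin made by Kupffer cells. Exposed livers 1 to 4 of day 3 all lay below every same-day control, and liver 5 lay above them. Clec4f had a net change of 2.56 ± 0.60 (adjusted p = 0.00474), and the remaining day 3 effect of -1.19 did not pass the test with all livers (adjusted p = 0.172) and was -1.55 (adjusted p = 0.0235) without liver 5.

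In the controls of day 1 the log2 signals of Cd163 were 7.24, 8.26, 7.96, 7.58 and 7.39, in the exposed livers of day 1 3.20, 3.13, 3.41 and 5.86, in the controls of day 3 7.32, 7.61, 7.11, 7.36 and 7.49 and in the exposed livers of day 3 5.28, 5.35, 5.03, 5.89 and 7.64. Cd163 encodes the scavenger receptor for hemoglobin bound to haptoglobin. Exposed livers 1 to 4 of day 3 lay below every control and above exposed livers 1, 2 and 4 of day 1, while liver 5 of day 1 lay among them. Cd163 had a net change of 2.24 ± 0.65 (adjusted p = 0.022), a call that was lost without exposed liver 1, 2 or 4 of day 1 (adjusted p = 0.0594, 0.0523 and 0.0572). The day 3 effect was -1.54 (adjusted p = 0.0834) and without liver 5 -1.99 (adjusted p = 0.00465). Cd5l, a secreted scavenger protein of tissue macrophages, was at 3.67, 3.84, 3.56 and 9.46 on day 1 and 7.45, 8.99, 9.19, 8.44 and 10.14 on day 3 in exposed livers, against 9.68 to 10.13 in the controls of day 3. Its net change was 4.13 ± 0.99 (adjusted p = 0.00578), and its day 3 effect of -1.04 did not pass (adjusted p = 0.596, and 0.393 without liver 5). Without liver 5 of day 3, therefore, 2 of the 11 markers were called lower on that day. Cd5l was not called, but its effect was then -1.37 ± 0.71, and exposed livers 1 to 4 lay below every same-day control. The fit takes 1 spread per probe set over all groups, so exposed liver 5 of day 1 (9.46) widened the error of this Cd5l test.

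The mannose receptor gene Mrc1 and the lysozyme gene Lyz2 behaved otherwise. Mrc1 had a day 1 effect of 0.00 and a net change of 0.36 ± 0.25 (adjusted p = 0.411), which was 0.54 (adjusted p = 0.041) with pooled controls. Lyz2, which monocytes and neutrophils also make, was raised on day 1 (1.21, adjusted p = 0.0207) and had a net change of -0.18 ± 0.52 (adjusted p = 0.885). The mean signal of the 11 markers was 8.65 to 9.13 in the controls of day 1, 5.84 to 8.08 in the exposed livers of day 1, 8.85 to 9.03 in the controls of day 3 and 8.64 to 9.18 in the exposed livers of day 3. In whole liver, fewer cells of a type and less RNA per cell cannot be told apart.

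Further genes that are not on the marker list but that macrophages or other myeloid cells are known to express were among the largest upward changes. For Siglec5 the signals were 6.50, 5.97, 7.13, 7.16 and 6.04 (controls of day 1), 4.10, 3.39, 3.76 and 3.82 (exposed, day 1), 5.90, 5.93, 6.20, 5.95 and 6.77 (controls of day 3) and 6.61, 6.69, 7.46, 6.89 and 7.04 (exposed, day 3). Siglec5 encodes a lectin of myeloid cells that binds sialic acid. All 4 exposed livers of day 1, liver 5 included, lay far below the controls, and the day 3 values overlapped with them. Siglec5 had a net change of 3.58 ± 0.48 (adjusted p = 1.8e-05). Anxa3, a phospholipid-binding annexin, had a net change of 3.12 ± 0.37 (adjusted p = 4.5e-06) after a day 1 effect of -2.83, and Ccl6, a chemokine of macrophages, one of 2.54 ± 0.42 (adjusted p = 0.00015). Il18, a cytokine that Kupffer cells store as a precursor, had 1.20 ± 0.27 (adjusted p = 0.00393).

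Genes of cell division gave the next group of upward changes, but here the controls moved as well. Of the 27 genes for G2/M and mitosis named on the array, 25 passed the filter on low signals, and these 25 had a net change upward (median over the list 2.38). The same 25 were lowered by Cd on day 1 (median -2.21), and none was called on day 3 (median 0.13). The control livers themselves were lower on day 3 than on day 1 at 11 of the 27 (median -1.22), where 0.702% of all probe sets fell in controls. When controls were pooled over the days, so that the net change became exposed day 3 minus exposed day 1, 15 of the 27 were called higher, at a median of 1.12. The same difference between exposed livers was called higher at 24 of the 27 in the fit with separate controls for each day. In the pooled fit the difference between the control days counts as spread.

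The log2 signals of Cdk1 were 8.97, 8.54, 9.32, 9.0 and 8.74 in the control livers of day 1, 6.21, 5.69, 5.42 and 6.98 in the exposed livers of day 1, 7.90, 7.77, 6.90, 7.69 and 7.58 in the controls of day 3 and 7.59, 7.73, 7.87, 7.22 and 8.24 in the exposed livers of day 3. Cdk1 encodes the kinase that drives cells into mitosis. Day 1 exposed livers were the lowest, apart from an overlap of liver 5 with the lowest day 3 control, and the controls of day 1 the highest. On day 3 exposed livers and controls overlapped. For Cdk1 the net change was 3.00 ± 0.61 (adjusted p = 0.00132). The controls of day 3 differed from those of day 1 by -1.34 (adjusted p = 0.158), and with pooled controls the net change was 1.65 (adjusted p = 0.0239).

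For Mki67 the signals were 7.82, 8.12, 8.38, 8.21 and 8.06 (controls of day 1), 5.54, 5.75, 5.51 and 6.49 (exposed, day 1), 6.54, 6.92, 6.32, 6.86 and 6.81 (controls of day 3) and 6.81, 7.32, 7.86, 7.02 and 7.37 (exposed, day 3). Mki67 encodes the Ki-67 protein, which marks cells in cycle. Its exposed livers of day 3 lay above those of day 1 without overlap, and the controls of day 3 lay below those of day 1 without overlap. The day 1 effect was -2.30, the day 3 effect 0.58 (adjusted p = 0.5), and the change of the controls -1.43 (adjusted p = 0.0282). Mki67 had a net change of 2.88 ± 0.47 (adjusted p = 0.000152). Ect2 and Kif20a, which act in the splitting of the dividing cell, had net changes of 3.25 ± 0.61 and 3.02 ± 0.49, and Ccnb2, a cyclin that partners Cdk1, one of 2.85 ± 0.56 (adjusted p = 0.000967).

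DNA synthesis genes showed a different day 3 state. Of 30 genes named on the array, 11 had a net change upward and 0 downward (median 0.47), 8 were lowered on day 1, and 4 were raised on day 3 against same-day controls, which had themselves fallen at 6. Without exposed liver 5 of day 3, 7 were raised on that day. With pooled controls 4 of the 30 were called higher. Mcm6 gave 6.55, 6.87, 6.71, 6.99 and 6.66 in day 1 controls, 5.88, 6.62, 6.04 and 6.20 in day 1 exposed livers, 5.88, 5.79, 5.21, 5.98 and 5.67 in day 3 controls and 6.83, 6.56, 7.00, 6.78 and 6.66 in day 3 exposed livers. Mcm6 encodes a subunit of the helicase that opens DNA for replication. Day 3 exposed livers overlapped with the controls of day 1, and all 5 lay above every control of day 3. Its day 1 effect was -0.57 (adjusted p = 0.121), its day 3 effect 1.06 (adjusted p = 0.0286), the change of its controls -1.05 (adjusted p = 0.0345) and its net change 1.62 ± 0.36 (adjusted p = 0.00315). With pooled controls the net change was 0.58 (adjusted p = 0.241). The day 3 call was lost without control liver 3 or 5 or exposed liver 1, 3 or 4 of day 3, where its effect stayed between 0.93 and 1.12.

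Members of this list that supply nucleotides were among those called. Rrm1, the large subunit of ribonucleotide reductase, had a net change of 1.34 ± 0.23 (adjusted p = 0.000266) and a day 1 effect of -0.99. For Tk1 the signals were 8.16, 8.13, 8.56, 8.26 and 8.08 (controls of day 1), 7.16, 7.21, 7.09 and 7.29 (exposed, day 1), 7.65, 7.63, 7.26, 7.51 and 7.77 (controls of day 3) and 7.73, 7.71, 7.73, 7.63 and 7.83 (exposed, day 3). Tk1 is thymidine kinase. Its 4 exposed livers of day 1 lay in a narrow band below every other liver except the lowest control of day 3, and its net change was 1.21 ± 0.15 (adjusted p = 9.74e-06). Dut, which removes dUTP, had 1.05 ± 0.16 (adjusted p = 6.18e-05), while a second probe set of it gave 0.23 and was not called.

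**Figure D3:**
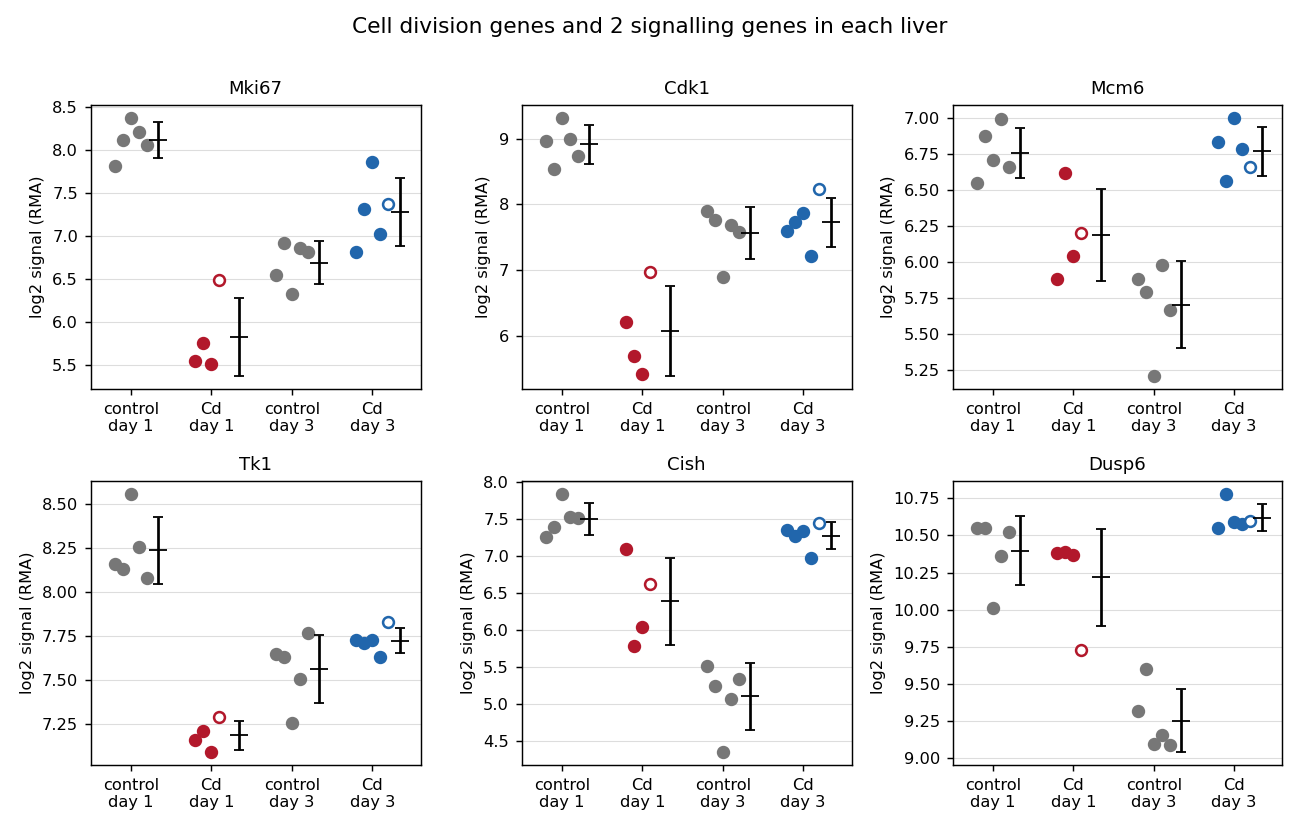
Log2 signal in each liver (symbols as for the Kupffer cell genes, bars mean and SD) of the cell division genes Mki67, Cdk1, Mcm6 and Tk1 and of the signalling genes Cish and Dusp6. The controls of day 3 lay below those of day 1 in all 6 panels, and for Mcm6, Cish and Dusp6 the exposed livers of day 3 lay above every same-day control.

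The promoter of Cdk1 is shown because the mitosis genes moved together. Promoters here are 250 bases before to 50 bases after the transcription start, from RefSeq on the rat build GRCr8, printed 5′ to 3′ on the strand of the gene. In that of Cdk1 (chr20:19265043-19265342, plus strand) the capitals mark matches on either strand to the cell cycle homology region core TTTGAA (2 matches) and to the CCAAT box (3 matches), both known elements of G2/M promoters.
Cdk1: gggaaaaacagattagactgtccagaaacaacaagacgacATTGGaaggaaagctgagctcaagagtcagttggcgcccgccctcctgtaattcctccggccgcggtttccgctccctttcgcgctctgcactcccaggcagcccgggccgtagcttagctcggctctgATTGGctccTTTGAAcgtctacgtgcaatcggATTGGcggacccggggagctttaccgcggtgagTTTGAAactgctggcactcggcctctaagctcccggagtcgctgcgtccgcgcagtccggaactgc
Of the 25 mitosis genes with a promoter in the table, 19 held TTTGAA on either strand, against 18.3% of all 33469 promoters, 18 held CCAAT, against 37.5%, and 14 held both, against 7.41%. These motifs were looked up after the values of the genes were known, and a match in letters is a description of the sequence and not evidence of a bound factor.

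Among the lists with downward changes, ER folding genes had the largest share of members called. Of the 18 genes on the array, 17 had a net change downward and 0 upward (median -0.86). The same number was raised on day 1 (median 0.71), and on day 3 none was called (median -0.17). Leaving out both exposed livers numbered 5 gave the same counts. In the controls of day 1 the log2 signals of Sdf2l1 were 10.52, 10.41, 10.33, 10.58 and 10.50, in the exposed livers of day 1 11.87, 11.69, 12.16 and 11.61, in the controls of day 3 10.83, 10.66, 10.44, 10.38 and 10.41 and in the exposed livers of day 3 10.38, 10.10, 10.21, 9.76 and 10.28. Sdf2l1 encodes an ER protein that works with the chaperone Hspa5. The 4 exposed livers of day 1 lay above all others by more than the spread within any group. On day 3 all 5 exposed livers were at or below the lowest control. The net change was -1.76 ± 0.17 (adjusted p = 1.85e-07), from a day 1 effect of 1.36 to a day 3 effect of -0.40 (adjusted p = 0.0945).

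For Creld2 the signals were 9.91, 10.41, 9.82, 9.79 and 9.62 (controls of day 1), 11.42, 10.90, 11.93 and 11.94 (exposed, day 1), 10.25, 10.32, 10.21, 9.83 and 9.62 (controls of day 3) and 10.13, 9.71, 9.94, 9.36 and 9.87 (exposed, day 3). Creld2, a disulfide isomerase of the ER that cells secrete under ER stress, had the largest net change of the list at -1.88 ± 0.29 (adjusted p = 7.72e-05). All 4 day 1 exposed livers were above every control. Dnajb9 and Dnajb11, co-chaperones of Hspa5, had net changes of -1.49 ± 0.23 and -1.37 ± 0.16. Hspa5, the chaperone BiP itself, is one of the brightest genes of the list and moved less: its exposed livers went from 13.12 to 13.51 on day 1 to 12.78 to 13.10 on day 3, against 12.79 to 13.14 and 12.92 to 13.14 in the controls (net change -0.50 ± 0.11, adjusted p = 0.00312). The single member not called was Xbp1, the transcription factor whose mRNA is spliced in the unfolded protein response, with 0.05 ± 0.21 (adjusted p = 0.916). Hspa5 and Xbp1 were named after their values were seen.

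The promoters of Creld2 (chr7:121789134-121789433, plus strand) and Hspa5 (chr3:38452766-38453065, plus strand) are printed as the member with the largest change and the best known target of the unfolded protein response. Capitals mark the ER stress response element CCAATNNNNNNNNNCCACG, which lies on the reverse strand in Creld2, at -145 to -127 from the start, and on the strand of the gene in Hspa5, at -43 to -25.
Creld2: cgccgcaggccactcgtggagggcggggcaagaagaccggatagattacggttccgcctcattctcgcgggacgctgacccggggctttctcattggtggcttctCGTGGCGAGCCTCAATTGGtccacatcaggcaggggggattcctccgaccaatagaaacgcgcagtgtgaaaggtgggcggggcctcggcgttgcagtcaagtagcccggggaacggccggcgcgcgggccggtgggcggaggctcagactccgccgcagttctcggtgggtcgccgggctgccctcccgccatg
Hspa5: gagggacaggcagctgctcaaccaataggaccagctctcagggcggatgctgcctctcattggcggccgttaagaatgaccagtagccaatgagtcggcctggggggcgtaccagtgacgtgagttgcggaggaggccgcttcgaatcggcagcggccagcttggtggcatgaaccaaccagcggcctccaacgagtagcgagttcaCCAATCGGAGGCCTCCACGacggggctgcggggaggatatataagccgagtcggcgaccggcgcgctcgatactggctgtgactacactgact
The element was found on either strand in 7 of the 15 ER folding promoters in the table and in 22 (0.0657%) of all 33469. It too was looked up after the values were known.

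Interferon-stimulated genes had more members raised on day 1 than any other of the 38 lists. Of 35 named on the array, 32 were raised on day 1 (median 1.05), and 22 had a net change downward and 0 upward (median -0.87), or 28 with pooled controls. On day 3, 5 were still called higher (median 0.32). Without both exposed livers numbered 5, 17 had a net change downward. The log2 signals of Isg15 were 8.0, 7.95, 8.13, 8.11 and 7.96 in the control livers of day 1, 11.37, 11.19, 11.97 and 12.08 in the exposed livers of day 1, 8.09, 8.12, 7.98, 7.65 and 8.26 in the controls of day 3 and 8.85, 8.42, 8.76, 9.03 and 8.60 in the exposed livers of day 3. Isg15 encodes a ubiquitin-like protein that is attached to other proteins in the antiviral response. The exposed livers of day 1 lay more than 2 log2 units above every other liver. On day 3 all 5 exposed livers, liver 5 included, still lay above every control. The day 1 effect was 3.62 (12.3-fold), the day 3 effect 0.71 (adjusted p = 0.0565, and 0.0454 without liver 5) and the net change -2.91 ± 0.28 (adjusted p = 1.56e-07).

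Mx2, a GTPase that blocks viruses, had a net change of -2.57 ± 0.37 (adjusted p = 2.96e-05) with exposed livers of day 3 at 6.65 to 8.10, within and just above the control range of 6.28 to 7.62. A second probe set of Mx2 had a net change of -0.29 and was not called. Oas1a, a sensor of double-stranded RNA, had -2.51 ± 0.41, and Usp18, the protease that removes Isg15 from its targets, -2.18 ± 0.33 (adjusted p = 6.55e-05). Mx1, a related GTPase, stayed high. Mx1 gave 5.79, 5.58, 6.64, 6.25 and 6.47 in day 1 controls, 7.44, 7.90, 8.03 and 8.0 in day 1 exposed livers, 5.84, 6.35, 6.12, 5.67 and 6.48 in day 3 controls and 7.71, 7.24, 7.87, 8.04 and 6.84 in day 3 exposed livers. Its exposed livers lay above every control on both days. The day 1 effect was 1.69, the day 3 effect 1.45 (adjusted p = 0.00717) and the net change -0.24 ± 0.36 (adjusted p = 0.748). The day 3 call of Mx1 held when each of the 10 livers of day 3 was left out, with effects between 1.32 and 1.62. Mx1 was named after its values were seen, as the member whose day 3 effect remained.

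The promoter of Oas1a (chr12:41330216-41330515, plus strand) is printed as that of an interferon-stimulated gene with a large net change. Capitals mark 2 overlapping matches to the core of the interferon-stimulated response element, GAAANNGAAA, at -41 to -32 and -35 to -26 from the start.
Oas1a: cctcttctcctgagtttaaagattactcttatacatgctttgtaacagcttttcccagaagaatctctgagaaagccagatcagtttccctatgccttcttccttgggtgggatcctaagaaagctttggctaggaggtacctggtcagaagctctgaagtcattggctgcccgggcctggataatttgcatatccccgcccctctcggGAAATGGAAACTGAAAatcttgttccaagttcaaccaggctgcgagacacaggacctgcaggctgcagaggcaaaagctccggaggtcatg
This core was present on either strand in 21 of 29 interferon-stimulated promoters in the table, against 3.92% of all 33469.

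**Figure D4:**
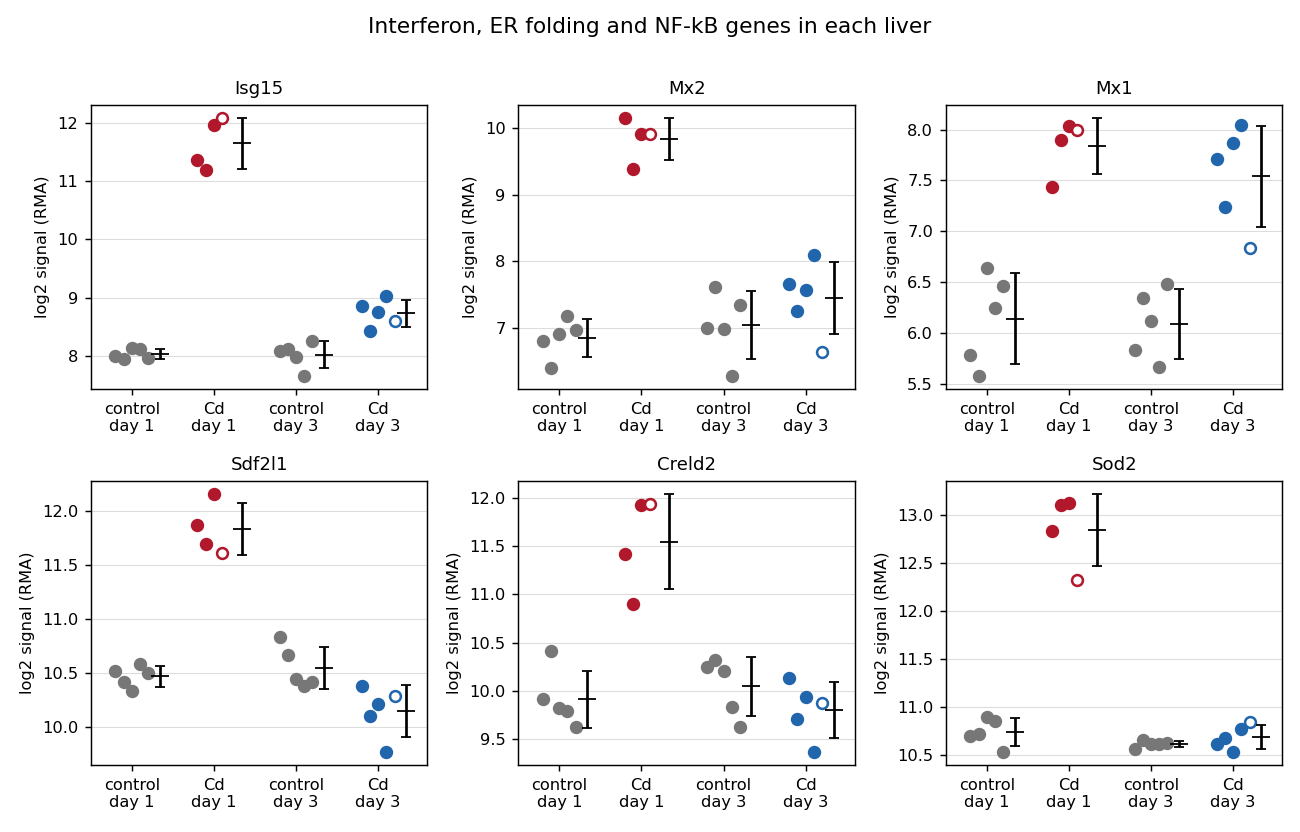
Log2 signal in each liver (symbols as for the Kupffer cell genes, bars mean and SD) of the interferon-stimulated genes Isg15, Mx2 and Mx1, the ER folding genes Sdf2l1 and Creld2, and Sod2. The exposed livers of day 1 lay above all controls in every panel, and on day 3 Mx1 and Isg15 still did.

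Inflammatory genes were raised on day 1, and a minority of the members of each list had a called net change. Of 22 acute phase proteins, 15 were raised on day 1 (median 0.47), 3 on day 3 (median 0.20), and 7 had a net change downward, a count that was 4 without exposed liver 1 of day 1 and 12 with pooled controls. Lbp, which presents bacterial lipopolysaccharide to macrophages, was at 7.30 to 8.61 in day 1 controls and 9.92 to 11.12 in day 1 exposed livers, and at 6.65 to 7.36 and 7.25 to 8.18 on day 3 (net change -1.77 ± 0.46, adjusted p = 0.0114). Steap4, a metalloreductase induced by inflammation, had -1.45 ± 0.29 and Il1rn, the natural antagonist of interleukin 1, -1.71 ± 0.28 (adjusted p = 0.000126). In the interleukin 6 and C/EBP signalling list 6 of 14 were raised on day 1, and 4 had a net change downward and 0 upward. They included Cebpd (-1.64 ± 0.31), which activates acute phase genes, Stat3 (-1.11 ± 0.29), which transmits the interleukin 6 signal, and Il6st (-0.82 ± 0.20), the shared receptor chain.

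The NF-kB list had 11 of 17 members raised on day 1 and none called on day 3. The net change was called downward at 5, which became 3 without exposed liver 5 of day 1 or exposed liver 2 of day 3, and 8 with pooled controls. In the controls of day 1 the log2 signals of Sod2 were 10.70, 10.72, 10.90, 10.86 and 10.53, in the exposed livers of day 1 12.83, 13.10, 13.12 and 12.32, in the controls of day 3 10.57, 10.66, 10.62, 10.62 and 10.63 and in the exposed livers of day 3 10.62, 10.68, 10.54, 10.77 and 10.85. Sod2 is the superoxide dismutase of mitochondria and a target of NF-kB. Its exposed livers of day 1 lay at least 1 log2 unit above all others, and those of day 3 overlapped with the controls. Its net change of -2.03 ± 0.16 had an adjusted p of 2.79e-09. Nfkbiz, an inducible regulator of NF-kB, had -1.38 ± 0.28 (adjusted p = 0.00153), while a second probe set of it gave -0.16 and was not called.

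The chemokine and cytokine list moved in both directions. Of 26 genes on the array 17 passed the filter, 6 were raised and 3 lowered on day 1, and 0 were called on day 3. The net change was called upward at 2 and downward at 3 (median -0.21), or at 4 and 5 with pooled controls. Over all probe sets 5.99% changed upward and 5.61% downward. Ltb, not on that list, had one of the large downward changes. For Ltb the signals were 5.57, 5.44, 5.83, 5.56 and 5.60 (controls of day 1), 8.98, 9.72, 8.43 and 9.31 (exposed, day 1), 6.50, 6.61, 6.50, 6.33 and 5.07 (controls of day 3) and 7.00, 5.68, 5.97, 5.85 and 5.74 (exposed, day 3). Ltb encodes lymphotoxin beta, a cytokine of the tumour necrosis factor family. All exposed livers of day 1 lay above all others, and on day 3 exposed livers 2 to 5 lay below controls 1 to 4. This gave Ltb a net change of -3.67 ± 0.44 (adjusted p = 4.32e-06). Cxcl9, a chemokine for T cells, had -3.10 ± 0.63 (adjusted p = 0.00128). Il1r2, the decoy receptor for interleukin 1, was at 3.66 to 4.39 in the exposed livers of day 3 and 5.39 to 8.26 in those of day 1. It passed the filter only through the latter, so that its net change of -2.52 ± 0.44 is given as a description.

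Cxcl1, a chemokine for neutrophils, was at 11.74, 10.48, 11.37 and 11.20 in the exposed livers of day 1 and 8.74, 7.93, 9.06, 7.42 and 6.20 on day 3, with liver 5 in the control range (6.08 to 7.17). Its net change of -3.25 ± 0.98 (adjusted p = 0.0286) lost its call without control liver 2 of day 1, exposed liver 1 or 4 of day 1 or exposed liver 5 of day 3. Among the large downward changes outside these lists were Isyna1 (-2.25 ± 0.28), which makes inositol phosphate, Pcsk5 (-2.13 ± 0.29), a protease that processes secreted precursors, and Rgs16 (-2.95 ± 0.51), a brake on G protein signalling. Igfbp1, the binding protein for insulin-like growth factors that rises in stress, had -2.10 ± 0.60 (adjusted p = 0.0211, and 0.06 without exposed liver 1 of day 1).

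Of 11 metallothionein and zinc transport genes, 4 were raised and 1 lowered on day 1, 0 were called on day 3 and 2 had a net change downward. The 4 include Mt1, which passed the filter only through the exposed livers of day 1. For Mt2A the return was uneven between livers. The log2 signals of Mt2A were 7.69, 7.34, 8.18, 8.79 and 9.29 in the control livers of day 1, 13.34, 12.37, 13.34 and 11.69 in the exposed livers of day 1, 9.09, 8.06, 7.60, 8.13 and 9.98 in the controls of day 3 and 11.22, 10.59, 9.87, 11.27 and 7.72 in the exposed livers of day 3. All 4 exposed livers of day 1 lay above all others, exposed livers 1, 2 and 4 of day 3 lay above the controls, liver 3 lay within their range, and liver 5 was near the lowest of them. The day 1 effect on Mt2A was 4.43 ± 0.73 (21.5-fold, adjusted p = 4.83e-05) and the day 3 effect 1.56 ± 0.68 (adjusted p = 0.337). The net change of -2.87 ± 1.00 just missed the test (adjusted p = 0.0618). It was called without exposed liver 5 of day 1 (adjusted p = 0.043), without exposed liver 1 or 4 of day 3 and with pooled controls (-2.55, adjusted p = 0.00996), and missed without both livers numbered 5 (-2.59, adjusted p = 0.0801), when the day 3 effect was 2.17 (adjusted p = 0.075).

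A probe set annotated to Mt1f, Ttr and Mt1 together gave 12.18 to 14.01 in exposed livers of day 1 and 8.45 to 12.98 on day 3 against 8.31 to 11.24 and 8.57 to 12.04 in controls, and its net change was -2.28 ± 1.14 (adjusted p = 0.216). The probe set with Mt1 as its single symbol is dim. It passed the filter only through the exposed livers of day 1, where it had to be high to be tested. Its effect there of 1.02 is therefore given as a description. The net change of Mt1 was -0.67 ± 0.36 (adjusted p = 0.261). Mt3 did not pass the filter on low signals, and Mt4 had a net change of -0.25 ± 0.14 (adjusted p = 0.289). Of the zinc and metal transporters, Slc39a14, an importer of zinc, iron and Cd, had a net change of -0.88 ± 0.13 (adjusted p = 3.7e-05) and Slc11a2, an importer of divalent metals, -0.82 ± 0.12 (adjusted p = 2.65e-05). Their day 3 effects were 0.04 and -0.05. These 2 were the members of the list with a called net change. A second probe set of Slc11a2 had a net change of -0.31 and was not called.

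The metallothionein promoters are printed because Cd acts on them through a known element. Mt1 (chr19:10832926-10833225) and Mt2A (chr19:10838659-10838958) lie close together on the minus strand. Capitals mark the core of the metal response element, TGCACNC or TGCGCNC, on either strand, with 6 matches in Mt1 and 4 in Mt2A.
Mt1: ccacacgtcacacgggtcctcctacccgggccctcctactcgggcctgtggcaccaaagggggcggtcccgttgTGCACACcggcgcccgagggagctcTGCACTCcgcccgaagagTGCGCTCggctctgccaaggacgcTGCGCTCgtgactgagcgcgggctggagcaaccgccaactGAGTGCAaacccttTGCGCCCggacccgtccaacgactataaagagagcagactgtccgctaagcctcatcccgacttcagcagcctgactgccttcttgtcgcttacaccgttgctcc
Mt2A: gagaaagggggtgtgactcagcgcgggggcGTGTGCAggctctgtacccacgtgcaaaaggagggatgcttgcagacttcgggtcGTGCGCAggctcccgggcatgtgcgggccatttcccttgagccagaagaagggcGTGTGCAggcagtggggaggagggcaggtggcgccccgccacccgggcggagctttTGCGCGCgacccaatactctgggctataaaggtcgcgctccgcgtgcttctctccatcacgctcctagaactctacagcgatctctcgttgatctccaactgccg
The core occurred in 5 of the 9 promoters of the list in the table and in 24.2% of all 33469.

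Iron export moved the other way. Slc40a1, ferroportin, the only known exporter of iron from cells, was at 10.43 to 10.80 in day 1 controls, 9.47, 9.88, 9.82 and 9.97 in day 1 exposed livers and 10.55, 10.89, 10.80, 11.06 and 10.79 in day 3 exposed livers, the last overlapping with the same-day controls of 10.39 to 10.67. Its net change was 1.21 ± 0.18 (adjusted p = 5.92e-05). Blvra, biliverdin reductase, the enzyme after heme oxygenase in heme breakdown, went past its controls. For Blvra the signals were 8.0, 8.12, 7.87, 8.05 and 7.84 (controls of day 1), 7.51, 7.83, 7.12 and 7.73 (exposed, day 1), 7.99, 7.81, 7.81, 7.77 and 7.77 (controls of day 3) and 8.57, 8.44, 8.54, 8.44 and 7.89 (exposed, day 3). Exposed livers 1 to 4 of day 3 lay above every control of either day. Blvra had a day 1 effect of -0.43 (adjusted p = 0.0117), a day 3 effect of 0.54 (adjusted p = 0.0175) and a net change of 0.97 ± 0.17 (adjusted p = 0.000312). The day 3 call was lost without control liver 3 or 4 or exposed liver 1, 3 or 4 of day 3, and its effect there was at least 0.49. The list of iron and heme genes had 4 of 16 with a net change upward, or 2 without control liver 5 or exposed liver 1 of day 1.

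**Figure D5:**
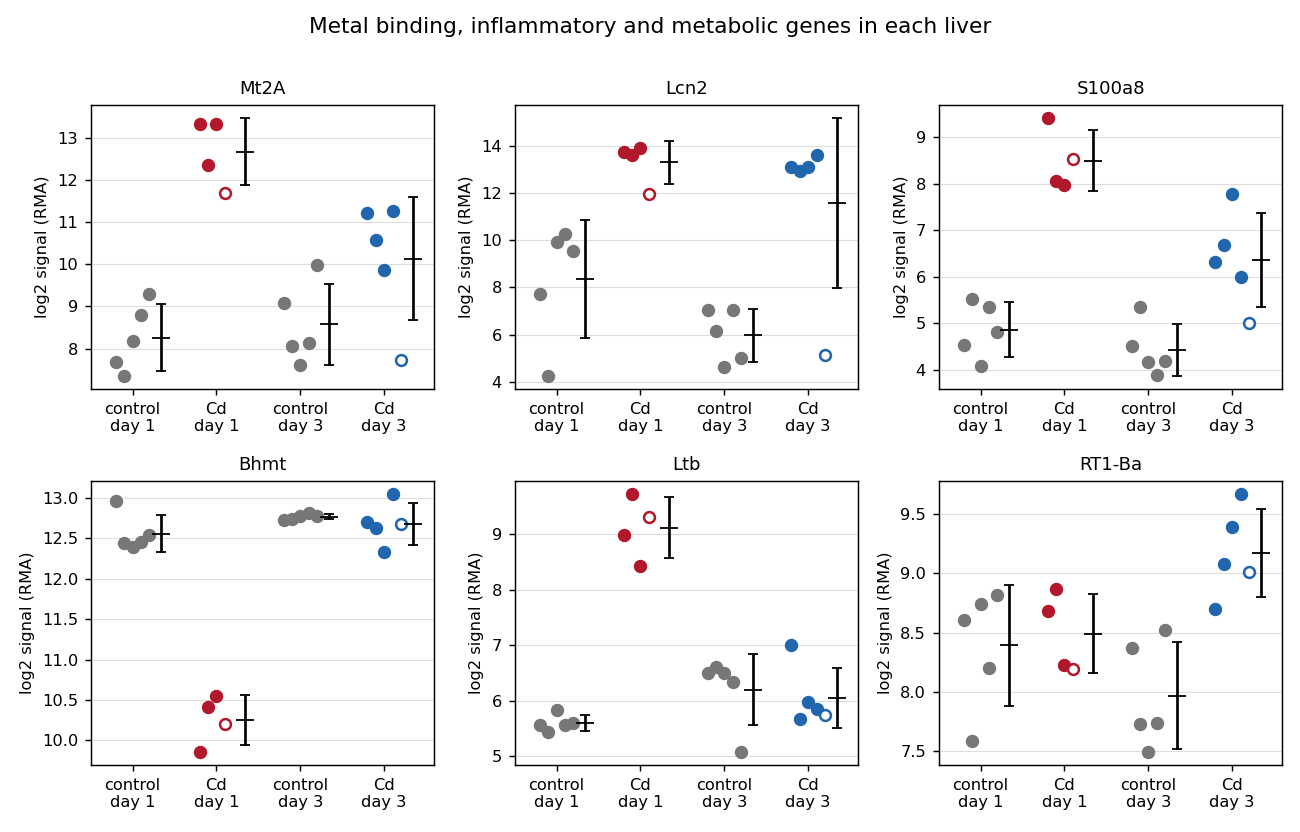
Log2 signal in each liver (symbols as for the Kupffer cell genes, bars mean and SD) of Mt2A, Lcn2, S100a8, Bhmt, Ltb and RT1-Ba. Exposed liver 5 of day 3 (open blue) lay in the control range for Mt2A, Lcn2 and S100a8 but above the controls for RT1-Ba.

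Metabolic genes of hepatocytes that Cd lowered on day 1 no longer passed the test on day 3. Of 31 genes of the urea cycle and amino acid catabolism, 23 were lowered on day 1 and 1 raised (median -0.47), none was called on day 3 (median -0.07), and 14 had a net change upward and 0 downward (median 0.37). In the controls of day 1 the log2 signals of Bhmt were 12.96, 12.44, 12.39, 12.46 and 12.54, in the exposed livers of day 1 9.85, 10.41, 10.55 and 10.20, in the controls of day 3 12.73, 12.74, 12.77, 12.81 and 12.77 and in the exposed livers of day 3 12.70, 12.63, 12.33, 13.05 and 12.68. Bhmt makes methionine from homocysteine and betaine. Every exposed liver of day 1 lay at least 1 log2 unit below every other liver, and those of day 3 overlapped with the controls. Its net change of 2.22 ± 0.23 was 4.65-fold (adjusted p = 4.41e-07). Prodh2, of hydroxyproline breakdown, had 1.11 ± 0.18, Gnmt, which uses up S-adenosylmethionine, 1.11 ± 0.27 and Hal, the first enzyme of histidine breakdown, 1.02 ± 0.24 (adjusted p = 0.00487).

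In fatty acid synthesis 10 of 15 genes were lowered on day 1 (median -0.77), and 4 had a net change upward (median 0.73), or 8 with pooled controls. They included Srebf1 (1.02 ± 0.27, adjusted p = 0.0132), the transcription factor of lipogenesis, Elovl5 (0.73 ± 0.14), which lengthens polyunsaturated fatty acids, and Fads1 (0.72 ± 0.18), which adds double bonds to them. Fatty acid oxidation had 8 of 24 lowered on day 1, and 3 had a net change upward and 1 downward, with 7 upward when exposed liver 5 of day 1 was left out. Over all probe sets 5.99% changed upward and 5.61% downward. The oxidation list members Fabp1, the fatty acid carrier of hepatocytes, and Acsl1, which activates fatty acids, had small net changes of 0.51 ± 0.13 and 0.40 ± 0.10. Cholesterol synthesis went the other way, with 9 of 19 raised on day 1 and 3 with a net change downward, or 1 without both exposed livers numbered 5 and 8 with pooled controls. This count was also 1 without control liver 1 or 5 of day 1, control liver 2 or 4 of day 3, exposed liver 4 of day 1, or exposed liver 3 or 5 of day 3. Mvk, mevalonate kinase, was 0.65 on day 1 and had a net change of -0.57 ± 0.14 (adjusted p = 0.0079). A second probe set of Mvk had a net change of -0.14 and was not called.

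Detoxification genes were lowered on day 1 as well. Of 29 cytochrome P450 genes of families 1 to 4, 11 were lowered on day 1 and none was called on day 3. A net change upward was called at 3 of the 29, where all probe sets gave 5.99%, so that the few calls hardly set this list apart. The count became 6 without exposed liver 5 of day 1 and 5 without exposed liver 3 of day 3. With pooled controls it was 8, where all probe sets gave 9.96%. The 3 were Cyp2c23 (0.77 ± 0.11), which makes epoxides of arachidonic acid, Cyp4f1 (0.70 ± 0.11), which hydroxylates fatty acids and leukotrienes, and Cyp2d2 (0.45 ± 0.11). Of the carriers, Slco1a4, which takes up bile acids and organic anions, had 1.17 ± 0.28 (adjusted p = 0.00606) and Abcc2, which exports conjugates into bile, 0.95 ± 0.22 (adjusted p = 0.00519).

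Targets of NRF2, the transcription factor of the antioxidant response, did not behave as a group on day 1. Of 23, 10 were lowered and 2 raised on day 1, and 5 had a net change upward, or 8 with pooled controls. Gclc, the catalytic subunit of the first enzyme of glutathione synthesis, was at 10.06 to 10.60 in day 1 controls, 8.76, 8.98, 8.88 and 9.48 in the exposed livers of day 1 and 9.72 to 10.08 on day 3, when the controls were at 9.84 to 10.11. Those of day 1 did not overlap with any other group. Its net change was 1.26 ± 0.20 (adjusted p = 0.000104). Ephx1, microsomal epoxide hydrolase, had 1.23 ± 0.25 and Gstm1, a glutathione transferase, 0.86 ± 0.18 (adjusted p = 0.00158).

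Secreted and endocrine functions included Serpina6, the carrier of corticosteroids in blood (1.23 ± 0.23, adjusted p = 0.000614), Igfals, which stabilises insulin-like growth factor complexes (0.82 ± 0.21), and Slc2a2, the main glucose transporter of hepatocytes (0.88 ± 0.23, adjusted p = 0.0104). The clock gene Per2 had 1.54 ± 0.33 (adjusted p = 0.002) with a day 1 effect of -1.38, and Plk2, a kinase and p53 target, 0.93 ± 0.22 (adjusted p = 0.00583). Of 30 proteasome subunits 9, and of 33 ribosome biogenesis genes 11, were raised on day 1. A net change downward was called at 2 in each list, near the 5.61% of all probe sets, and at 5 and 9 with pooled controls, where all probe sets gave 9.87%. When each liver was left out these counts ranged from 1 (without control liver 5 of day 1, control liver 2 of day 3, exposed liver 1 or 4 of day 1, or exposed liver 1 of day 3) to 4 (without exposed liver 5 of day 1) for the proteasome, and for ribosome biogenesis from 0 (without control liver 2 of day 3 or exposed liver 1 or 4 of day 1) to 5 (without exposed liver 3 of day 3).

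For some genes the net change lay largely in the controls. Cish gave 7.26, 7.39, 7.84, 7.52 and 7.51 in day 1 controls, 7.10, 5.78, 6.04 and 6.62 in day 1 exposed livers, 5.51, 5.24, 4.34, 5.07 and 5.34 in day 3 controls and 7.35, 7.27, 7.34, 6.97 and 7.45 in day 3 exposed livers. Cish encodes a feedback inhibitor of growth hormone and cytokine signalling. The controls of day 3 lay below every other liver, while the exposed livers of day 3 were within or near the range of the day 1 controls. The change of the controls was -2.40 (adjusted p = 0.0144) and the net change 3.29 ± 0.72 (adjusted p = 0.00272). The day 1 effect was -1.12 (adjusted p = 0.127) and the day 3 effect 2.18 (adjusted p = 0.0224, lost without control liver 3 or 4 or exposed liver 1, 3 or 4 of day 3, where it reached at most 0.0774). With pooled controls the net change was 0.89 (adjusted p = 0.426).

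For Dusp6 the signals were 10.55, 10.55, 10.01, 10.36 and 10.52 (controls of day 1), 10.38, 10.39, 10.37 and 9.73 (exposed, day 1), 9.32, 9.60, 9.10, 9.16 and 9.09 (controls of day 3) and 10.55, 10.78, 10.59, 10.58 and 10.60 (exposed, day 3). Dusp6 encodes a phosphatase that switches off ERK signalling. Its controls fell by 1.14 from day 1 to day 3 (adjusted p = 0.0017), and all 5 exposed livers of day 3 lay above all same-day controls (day 3 effect 1.36, adjusted p = 0.0014). This day 3 call held when each of the 10 livers of day 3 was left out. The net change was 1.54 ± 0.27 (adjusted p = 0.000355) and with pooled controls 0.40 (adjusted p = 0.427). Foxa2, a transcription factor of hepatocyte identity, had a control change of -1.05 (adjusted p = 0.0216) and a net change of 1.45 ± 0.33. Pdk4, which restrains glucose oxidation in fasting, had -0.73 (adjusted p = 0.0353) and 1.03 ± 0.25. With pooled controls these became 0.40 (adjusted p = 0.429) and 0.29 (adjusted p = 0.427).

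Controls that rose gave the reverse. The log2 signals of Tbx3 were 6.14, 5.40, 6.13, 5.36 and 5.15 in the control livers of day 1, 5.75, 6.28, 6.91 and 7.40 in the exposed livers of day 1, 6.70, 6.80, 6.76, 6.68 and 6.64 in the controls of day 3 and 5.72, 5.80, 5.96, 5.66 and 5.36 in the exposed livers of day 3. Tbx3, a T-box transcription factor of liver development, was raised on day 1 (0.95, adjusted p = 0.00477) and lowered on day 3 (-1.02, adjusted p = 0.0205), while its controls rose by 1.08 (adjusted p = 0.0182). All 5 exposed livers of day 3 lay below all same-day controls. The net change was -1.96 ± 0.33 (adjusted p = 0.000218), and -0.88 (adjusted p = 0.0498) with pooled controls. The day 3 call was lost without control liver 3 or 4 or exposed liver 1, 3 or 4 of day 3 (effects between -1.08 and -0.93). Ddit4, an inhibitor of mTOR induced by stress, had a control change of 1.27 (adjusted p = 0.00873), a net change of -1.29 ± 0.36 (adjusted p = 0.0184) and one of -0.02 (adjusted p = 0.979) with pooled controls. Without both exposed livers numbered 5 its net change was -1.07 (adjusted p = 0.0555). Over all probe sets the controls differed between the days at 128 (0.825%), 19 higher (0.122%) and 109 lower on day 3. What set the control livers of the days apart was not tested.

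Several of the genes still raised on day 3 were high in exposed livers 1 to 4 and at the control level in liver 5. For Lcn2 the signals were 7.73, 4.23, 9.94, 10.27 and 9.56 (controls of day 1), 13.76, 13.63, 13.91 and 11.96 (exposed, day 1), 7.04, 6.15, 4.64, 7.06 and 5.01 (controls of day 3) and 13.12, 12.95, 13.11, 13.64 and 5.12 (exposed, day 3). Lcn2 encodes lipocalin 2, which starves bacteria of iron and is released by injured liver. Exposed livers 1 to 4 of day 3 were as high as those of day 1, and liver 5 was within the control range. The day 3 effect was 5.61 ± 1.38 (adjusted p = 0.0358), and 7.23 (adjusted p = 0.000604) without liver 5. The controls themselves ranged from 4.23 to 10.27 on day 1, and the net change was 0.64 ± 2.02 (adjusted p = 0.893).

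S100a8 gave 4.53, 5.53, 4.09, 5.36 and 4.82 in day 1 controls, 9.42, 8.06, 7.98 and 8.53 in day 1 exposed livers, 4.52, 5.36, 4.17, 3.90 and 4.19 in day 3 controls and 6.32, 6.68, 7.77, 5.99 and 5.01 in day 3 exposed livers. S100a8 and S100a9 form calprotectin, a protein of neutrophils and monocytes. The exposed livers of day 3 lay between those of day 1 and the controls, except liver 5, which lay within the control range. S100a8 had a day 1 effect of 3.63 (12.4-fold) and a day 3 effect of 1.92 (adjusted p = 0.0293, and 0.00431 without liver 5). Its net change was -1.71 ± 0.66 (adjusted p = 0.0972), and it was called without exposed liver 3 of day 3 and with pooled controls. The effects on S100a9 were 3.64 on day 1 and 2.17 on day 3 (adjusted p = 0.0164). S100a4, a calcium-binding protein of motile cells, and Gpnmb, a glycoprotein of lysosome-rich macrophages, had day 3 effects of 1.63 and 1.76. Their net changes were 0.04 ± 0.54 and -0.27 ± 0.62 (adjusted p = 0.979 and 0.85). Of 12 neutrophil and monocyte markers on the array 4 passed the filter, and 3 of these were called higher on day 1 and 3 on day 3. S100a8 passed only through the exposed livers of day 1, where it was high, as did Lcn2. When each of the 10 livers of day 3 was left out, the day 3 calls of Lcn2, S100a8, S100a9, S100a4 and Gpnmb were lost in 9, 7, 3, 6 and 6 cases, in all 5 genes without exposed liver 3 or 4 or control liver 3, at adjusted p-values of at most 0.137. Their effects stayed between 5.09 and 7.23 for Lcn2, 1.57 and 2.26 for S100a8, 1.85 and 2.45 for S100a9, 1.25 and 1.94 for S100a4, and 1.29 and 2.22 for Gpnmb. Exposed liver 3 was the highest of the day for S100a8, S100a9, S100a4 and Gpnmb.

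With all livers, class II antigen presentation genes were called on day 3 and not on day 1, but for none of them did the difference between the days pass the test. Of 8 on the array, 3 were raised on day 3 (median 0.84) and 0 on day 1 (median 0.33), and 0 had a called net change (median 0.66). Without exposed liver 5 of day 3, 5 were raised on that day, and without exposed liver 5 of day 1, 1 was raised on day 1. For RT1-Ba the signals were 8.61, 7.59, 8.74, 8.20 and 8.82 (controls of day 1), 8.68, 8.87, 8.23 and 8.19 (exposed, day 1), 8.37, 7.73, 7.49, 7.74 and 8.52 (controls of day 3) and 8.70, 9.08, 9.39, 9.67 and 9.01 (exposed, day 3). RT1-Ba encodes the alpha chain of a class II molecule. All 5 exposed livers of day 3 lay above every same-day control, and the groups of day 1 overlapped. Its day 3 effect was 1.20 (adjusted p = 0.0428), a call that held only without control liver 1 or 5 or exposed liver 5 of day 3, while the effect stayed between 1.08 and 1.34. The beta chain gene RT1-Bb had 2.16 (adjusted p = 0.0579, and 0.033 without liver 5). The 2 other RT1-Ba probe sets tested had net changes of -0.04 and 0.14, neither of them called. 

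Few genes were lowered on day 3. The day 3 effects were -0.70 for Rasd1, a small G protein induced by glucocorticoids, -0.66 for Efna1, a ligand of Eph receptors, and -0.56 for Lrig3, a membrane protein. For all 3 the exposed livers of day 3 lay below every same-day control, but the calls were lost in 9, 7 and 7 cases when each of the 10 livers of day 3 was left out (adjusted p up to 0.0931, 0.0835 and 0.108), while the effects stayed between -0.74 and -0.66 for Rasd1, -0.70 and -0.62 for Efna1, and -0.60 and -0.52 for Lrig3. Matrix and stellate cell genes had 0 of 29 called in the net change and 0 on day 3, at a day 3 median of 0.46. Lymphocyte, bile duct and red blood cell markers had 0 calls in the net change, with 3, 2 and 4 members above the filter. Of 16 sinusoidal endothelial markers, 8 were raised on day 1, 0 on day 3, and 1 had a net change downward, near the 5.61% of all probe sets.

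By day 7 few differences were called, which does not show that effects were absent. The authors, who used pooled controls, described metallothionein genes, S100a8 and S100a9 as still raised by Cd on day 7. Exposed and control livers of day 7 (5 each) differed at 4 probe sets (0.0258%). Cd effects on day 1, day 3 and day 7 were -3.75, 0.31 and 0.31 for C1qa, -3.75, -1.19 and -0.01 for Clec4f, and -3.79, -1.54 and -0.13 for Cd163. For Isg15 they were 3.62, 0.71 and 0.48. For Mx1 they were 1.69, 1.45 and 0.55. Mt2A had 4.43, 1.56 and 1.89, and Mki67 -2.30, 0.58 and -0.65. A further change of the Cd effect from day 3 to day 7 was called by limma at 0 probe sets, and at 772 (4.97%) at an unadjusted p of 0.05.

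The Cr arrays offer a contrast. The doses and compounds differ, so that the comparison is of these exposures and not of equal amounts of metal. The net change of Cd differed from that of Cr at 1209 probe sets (7.79%), 739 higher (4.76%) and 470 lower (3.03%) for Cd. This count was 783 without exposed Cr liver 1 of day 1 and 2321 without exposed Cr liver 5 of day 1. Of the 11 Kupffer markers 9 had a higher net change after Cd: C1qa had 4.06 after Cd and -0.13 after Cr (difference 4.18 ± 0.58, adjusted p = 4.17e-06). Of the ER folding genes 10 of 18 were lower, Sdf2l1 with -1.76 against 0.35 (difference -2.12 ± 0.31, adjusted p = 1.2e-05). Sod2 had -2.03 against -0.20 (difference -1.82 ± 0.19, adjusted p = 2.27e-09), and Ltb -3.67 against 0.01 (difference -3.68 ± 0.62, adjusted p = 0.000119).

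The net change of Cr itself was called at 4226 probe sets (27.2%), 1626 upward (10.5%) and 2600 downward (16.8%). In the DNA synthesis list 18 of 30 were higher for Cd, while 13 fell in the net change of Cr, and in the heat shock list 10 of 16 were higher for Cd, while 11 fell for Cr. Fkbp4, a co-chaperone of steroid receptors, had 0.64 after Cd and -0.60 after Cr (difference 1.24 ± 0.22, adjusted p = 0.000226). Nr0b2, a repressor of bile acid synthesis, had -1.67 against 1.85 (difference -3.52 ± 0.79, adjusted p = 0.00356). For the G2/M and mitosis list a difference was called at 5 of 27, and for Cdk1 it was 2.18 ± 0.84 (adjusted p = 0.0973). Isg15 had -2.91 after Cd and -1.76 after Cr, a difference of -1.15 ± 0.46 that did not pass (adjusted p = 0.112). Counts of list members in this comparison were not recomputed without single livers.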

How the data were processed

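Liver RNA from male Sprague-Dawley rats was hybridised to Affymetrix whole genome arrays for the rat, 1 array per liver. The authors extracted total RNA from flash frozen liver with Trizol, and Partek Genomic Suite was used by the authors to turn probe intensities into log2 RMA values, which are what was deposited. Arrays carry no read depth, and the number of livers limits the precision. Of 31042 probe sets other than the 57 control probe sets, 20826 had 1 gene symbol in the platform annotation, 436 had several and 9780 had none. Each gene was represented by its brightest probe set. The study's present calls were not used here. In their place, for each probe set the lowest signal within each of the 6 Cd groups was taken, and the 15521 probe sets whose highest such value was at least 5.38 were kept. Of these, 159 passed only through the exposed livers of day 1, among the genes named Il1r2, Lcn2, Mt1 and S100a8, which had to be high there to be tested.

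The Cd arrays of days 1, 3 and 7 were fitted together with limma 3.58.1 (statmod 1.5.0, R 4.3.3), 1 mean per group, with moderated variances and Benjamini-Hochberg adjustment over all probe sets kept. Tables were made with Python 3.11.15. The net change was the contrast of the Cd effects of day 3 and day 1, and the Cr comparison added the Cr arrays. Groups came from the sample labels. Nothing states that livers of a number share a cage, litter or day, and p-values measure the spread between these livers. The fit was tested on simulated data. Alternatives were pooled controls, no filter, a stricter filter, a second quantile normalization, other variance models, array weights, the mean of a gene's probe sets, a replicate block, the 19 arrays alone and each liver left out.

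The members and the 38 gene lists (695 genes named on the array) were chosen with earlier results of these data known. Named genes were the 12 largest called rises and 12 largest called falls of the net change without overlap between the exposed livers of the days, the 6 largest called rises and falls on day 3, up to 4 called members of each list (2 of the largest where none passed), the metallothioneins, and the 5 largest called differences from Cr in each direction. Of these, most whose call was lost without single livers are given only in list counts, a choice made after values were seen, as was the leaving out of both livers numbered 5. Promoter sequences are from RefSeq (GRCr8).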

Additional observations from a re-analysis of the deposited data

Results flagged for a closer look

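The Cd effect itself differed between day 1 and day 3 at 1801 probe sets, and the net change of Cd differed from that of Cr at 1209 (limma contrasts, Benjamini-Hochberg over 15521 probe sets). Of the genes named here, those given next had a net change that differed between the metals at an adjusted p of 0.05 or less. All values are the log2 net change of Cd minus that of Cr.

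In Kupffer cell markers the difference was 4.18 for C1qa, 3.50 for C1qb, 3.73 for C1qc, 4.49 for Cd5l, 2.92 for Adgre1, 2.67 for Clec4f, 2.54 for Cd163, 1.48 for Csf1r and 2.22 for Cd68. In genes of DNA synthesis and the cell cycle it was 2.59 for Mcm6, 1.55 for Rrm1, 0.97 for Dut and 1.12 for Plk2. In metabolic, detoxification and iron genes it was 1.28 for Slc40a1, 1.42 for Blvra, 1.63 for Bhmt, 0.52 for Cyp4f1, 1.27 for Gclc, 1.54 for Ephx1, 0.99 for Gstm1 and 0.82 for Slc2a2. Other genes with a higher net change after Cd gave 3.05 for Siglec5, 3.59 for Anxa3, 3.04 for Ccl6, 1.79 for Per2, 1.74 for Dusp6, 1.24 for Fkbp4 and 1.57 for Il18. Among the ER folding genes, whose net change was lower after Cd, it was -2.12 for Sdf2l1, -1.11 for Dnajb11 and -1.04 for Dnajb9. In inflammatory and interferon-stimulated genes it was -1.74 for Mx2, -1.85 for Oas1a, -1.36 for Steap4, -1.33 for Il1rn, -1.82 for Sod2, -3.01 for Cxcl9, -3.68 for Ltb and -2.38 for Il1r2. Il1r2 passed the filter only through the exposed Cd livers of day 1, where it was high, so its value is given as a description. The remaining lower values were -2.46 for Isyna1, -2.37 for Pcsk5, -0.78 for Slc39a14, -0.97 for Slc11a2, -1.24 for Efna1, -1.87 for Ddit4 and -3.52 for Nr0b2.

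Within groups of 4 or 5 livers, 26 of 392 groups looked at held a liver far from the rest (its gap to the nearest liver was a large share of the group's range, by Dixon's critical value), where chance gives about 1 in 20. Exposed liver 5 of day 1 was that liver 10 times. It was the highest of its group at 8.61 for C1qa, 7.70 for C1qc, 9.46 for Cd5l, 5.87 for Adgre1, 5.86 for Cd163, 9.81 for Nfkbiz and 12.45 for Elovl5, and the lowest at 6.57 for Il1rn, 9.73 for Dusp6 and 11.96 for Lcn2 (log2 signal). Exposed liver 5 of day 3 was the lowest of its group at 8.89 for Stat3, 7.89 for Blvra and 5.12 for Lcn2. The other highest values of a group were 7.00 for Ltb and 4.39 for Il1r2 in exposed liver 1 of day 3, 9.95 for Rgs16 in exposed liver 1 of day 1, 12.96 for Bhmt in control liver 1 of day 1, 7.99 for Blvra and 12.52 for Gnmt in control liver 1 of day 3 and 10.78 for Dusp6 in exposed liver 2 of day 3. The other lowest values of a group were 6.85 for Ect2 in control liver 3 of day 3, 5.59 for Oas1a in control liver 2 of day 1, 7.91 for Cebpd in exposed liver 2 of day 1, 5.07 for Ltb in control liver 5 of day 3, 10.43 for Slc40a1 in control liver 1 of day 1 and 8.75 for Mrc1 in exposed liver 4 of day 1.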

How the results depend on the processing

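Of 98 genes named in the report, 83 had a called net change. Of these, 73 kept the call and its direction under every alternative run, the leaving out of each liver included. Most genes that met the naming rule but lost their call without single livers are given only in list counts. The 73 of 83 therefore follows in part from that choice. The setting that took the most calls was the pooling of the controls of all 3 days. It took 7, those of Cish, Dusp6, Foxa2, Mcm6, Pdk4, Ddit4 and Lrig3. Leaving out exposed liver 1 or 4 of day 1, or both exposed livers numbered 5, took 3 each. With pooled controls the net change was called at 3078 probe sets, 1546 upward and 1532 downward. The other alternatives (no filter, a mean log2 signal of 6 or more, quantile normalization again, array weights, other variance models, the 19 arrays alone and, chosen after seeing the data, both exposed livers numbered 5 left out) gave between 1599 and 1915.

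Leaving out each liver gave 1328 to 1968 probe sets for the net change (731 to 1027 upward, 591 to 941 downward, 454 to 620 with 1.8-fold). For the day 1 effect it gave 2820 to 3729 (1507 to 2055 higher, 1175 to 1700 lower, 567 to 733 with 1.8-fold), and for the day 3 effect 23 to 409 (22 to 363 higher, 1 to 46 lower, 10 to 129 with 1.8-fold). For the difference from Cr it gave 783 (without exposed Cr liver 1 of day 1) to 2321 (without exposed Cr liver 5 of day 1), with 490 to 1462 higher, 293 to 859 lower and 354 to 812 with 1.8-fold. The cause was not tested.

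With the replicate number as a block, the net change was called at 2069 probe sets and the difference from Cr at 1502. Deviations from the group means correlated at 0.165 on average between same-number livers and at -0.041 between others. Of 27 same-number pairs, 20 were over 0.1. For 17 of 19 livers the mean correlation with livers of other groups was highest at their own number, a hint from the data and not from the design.

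Directions turned for genes whose net change was near 0 or not called. Lcn2 went to -1.73 and Xbp1 to -0.29 with pooled controls. S100a4 went to -0.35 with pooled controls, to -0.01 with the replicate block, and ranged from -0.34 to 0.35 when each liver was left out. Xbp1 was -0.01 without control liver 3 of day 3 or exposed liver 2 of day 1 (highest 0.16), and Lyz2 was 0.01 (lowest -0.41) without control liver 1 of day 1 or exposed liver 5 of day 3. Gpnmb was 0.20 (lowest -0.73) without exposed liver 5 of day 3 and 0.09 without both livers numbered 5. RT1-Ba was -0.26 as the mean over its probe sets. Detection calls were not used, so whether dim signals, such as those of C1qa and Cd163 in exposed livers of day 1, lay above the array's background was not tested.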
